A study of Homo sapiens with 12 samples.

Results

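The zinc finger genes of chromosome 19 are the protein-coding genes on that chromosome whose symbol is ZNF followed by a number. The table held 249 of them among 19951 protein-coding genes. Of the 249, 113 had a mean of at least 1 FPKM (fragments per kilobase of gene length, scaled to depth) over the 12 libraries and are described in depth, and 136 lay below that level. The entries included the read-through loci ZNF559-ZNF177, ZNF625-ZNF20 and ZNF816-ZNF321P. A C2H2 zinc finger family tag stood in the table for 239 of the 249.

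TFK1 is an established human cholangiocarcinoma line, a tumour of the bile ducts, labelled wild type and grown in RPMI 1640 medium. Messenger RNA was sequenced after 24 h of treatment in untreated control cells, cells given 6 Gy of radiation, cells given nab-paclitaxel at 1.62 ng/ml, and cells given both. Nab-paclitaxel is an albumin-bound form of paclitaxel, a drug that stabilises microtubules, and the study asked how it makes such cells more sensitive to radiotherapy. Each group held 3 libraries labelled as biological replicates of this 1 line. The labels name no separate cultures, so p-values measure the spread between these libraries.

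Recovered fragment totals ran from 14840283 to 17992242 per library, and the zinc finger genes at 1 FPKM or more took 0.199 to 0.237% of them. Of 6 biliary epithelial markers 5 were at 1 FPKM or more, led by KRT19 at 419 FPKM, while KRT7 had a mean of 0.533. Macrophage (0 of 5), endothelial (0 of 4) and lymphocyte (0 of 4) markers stayed below 1 FPKM, as did fibroblast markers apart from COL1A1 at 5.70. Control 2, nab-paclitaxel 1 and combination 2 stood apart from the other libraries of their groups on the second principal component of all tested genes (scores of 30.6, 28.6 and 3.64, where the other 9 ran from -15.4 to 0.762), and counts of genes past the threshold in the pairwise comparisons are therefore given with and without these 3.

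C2H2 zinc finger proteins form the largest family of human transcription factors, and many of those encoded on chromosome 19 carry a KRAB domain in front of an array of fingers. The fingers read DNA, often the sequence of a transposable element, and the KRAB domain recruits TRIM28, also called KAP1, which brings in the histone methyltransferase SETDB1 and heterochromatin proteins. The genes lie in clusters of neighbours that arose by repeated duplication, so many share sequence.

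Transcripts of these genes were scarce, and many were close to absent. Of the 249 genes, 96 (38.6%) had a mean below 0.1 FPKM, 40 lay between 0.1 and 1 FPKM, 45 between 1 and 2, 49 between 2 and 5, and 19 at 5 or more. The share at 1 FPKM or more was 45.4% for the chromosome 19 zinc finger genes, 72.1% for the 265 ZNF genes of other chromosomes and 56.3% for the other 1223 protein-coding genes of chromosome 19. The share below 0.1 FPKM was 38.6, 16.2 and 27.9% in the same order. The last of these sets also holds zinc finger genes with other symbols, such as ZFP28. Among genes at 1 FPKM or more the median of the mean level was 2.48 FPKM for the chromosome 19 zinc finger genes, 3.85 for the ZNF genes elsewhere and 8.61 for the other genes of the chromosome. Only 5 of the 249 reached 10 FPKM, or 2.01%, against 20.8% of all protein-coding genes.

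**Figure D1:**
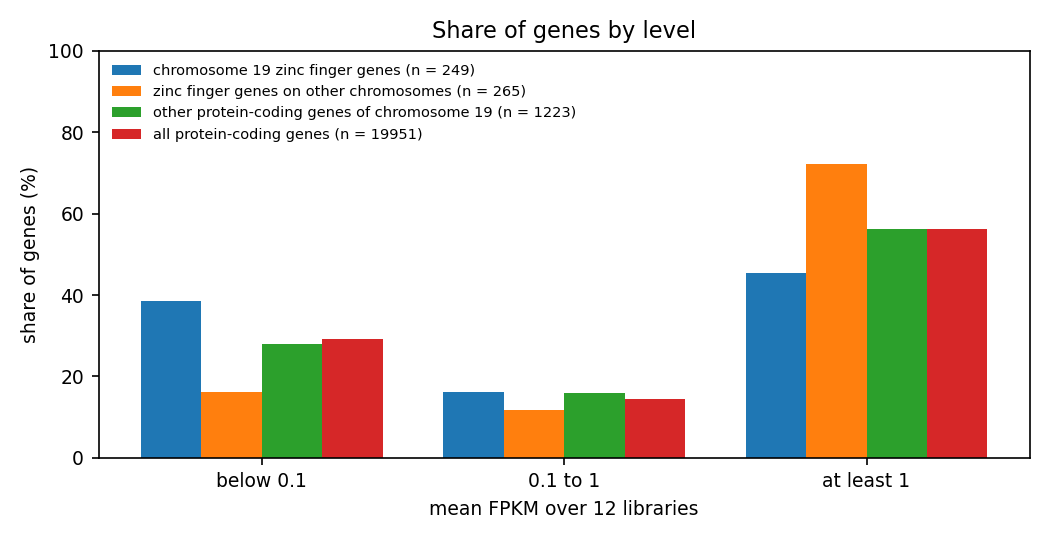
Bars give the share of genes (%, linear axis from 0) whose mean FPKM over 12 libraries fell below 0.1, from 0.1 to 1, or at 1 or more, for 4 sets of protein-coding genes. Chromosome 19 zinc finger genes had the highest share below 0.1 FPKM of the 4 sets (38.6%) and the lowest share at 1 FPKM or more (45.4%).

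The most abundant member was ZNF146 with a mean of 46.9 FPKM, a protein made almost wholly of zinc fingers with no KRAB domain. It was at 49.97, 60.5 and 46.9 FPKM in the control libraries, 44.6, 45.4 and 49.6 after radiation, 58.2, 40.2 and 43.9 with nab-paclitaxel, and 42.9, 44.1 and 36.6 with both. The 3 combination libraries lay below the 3 control libraries, with a log2 fold change of -0.34 ± 0.14 (SE) and an adjusted p of 0.106, so the change did not pass the threshold. It did pass with quantile normalization (-0.417, adjusted p = 0.0230) and TPM scaling (-0.375, adjusted p = 0.0348), but under no other setting that kept every library. ZNF121 followed at 21.6 FPKM, then ZNF581 at 14.3, ZNF317 at 12.5, ZNF358 at 10.96, ZNF787 at 9.13, ZNF579 at 9.12 and ZNF865 at 8.43. The sum over the 113 genes varied little, from 406.89 to 455.75 FPKM per library, and their median ranged from 2.315 to 2.666. In all, 93 of the 113 were at 1 FPKM or more in each of the 12 libraries.

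At the lower limit, ZNF112 and ZNF426 (both 1.02 FPKM) and ZNF136 (1.03) were just inside, and ZNF613 (0.996), ZNF114 (0.994) and ZNF701 (0.929) just outside. Of the 136 below 1 FPKM, 4 had a mean of at least 1 in some group, namely ZNF221, ZNF155, ZNF114 and ZNF613, and 7 of the 113 had a group mean below 1. ZNF155 was above 1 in control as well (1.01 FPKM), and these group means were not tested.

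The 96 genes below 0.1 FPKM were nearly silent in every group. For 38 of them no fragment was recovered in any library, and 63 had at most 3 fragments over all 12. The highest level of any of them in any library was 0.179 FPKM, none had a group mean of 1 FPKM, and 2 had a group mean of 0.1 or more. A count of 0 in the 12 libraries says that transcripts were not detected at this depth. Sequence shared with other genes, given below for some runs, also makes some of these levels uncertain.

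Nearly silent genes often followed each other along the chromosome. Grouping neighbours separated by at most 500 kb gave 20 clusters. In the cluster from ZNF101 to ZNF254 (chr19:19668796-24129961, hg38), 8 of 37 genes were at 1 FPKM or more, and in that from ZNF565 to ZNF573 (chr19:36182060-37817300) 6 of 26. The cluster from ZNF653 to ZNF791 (chr19:11483427-12640098) held 8 of 26. Of the other clusters with at least 10 genes, that from ZNF414 to ZNF846 (chr19:8509678-9793180) held 10 of 14 and that from ZNF575 to ZNF180 (chr19:43525497-44500524) 10 of 23. The remaining ones held 18 of 40 from ZNF175 to ZNF331 (chr19:51571298-53580269), 9 of 16 from ZNF628 to ZNF835 (chr19:55476332-56671783) and 26 of 43 from ZNF264 to ZNF446 (chr19:57191500-58481230).

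There were 7 runs of at least 5 neighbouring members below 0.1 FPKM. The longest spanned 1342 kb and held 11 genes from ZNF43 to ZNF730, with 3 fragments in all over the 12 libraries. ZNF100 just before it had a mean of 1.19 FPKM, and ZNF724 just after it 0.337 FPKM. Another run held ZNF582, ZNF583, ZNF667, ZNF471, ZNF470, ZNF71 and ZNF835 (chr19:56375846-56671783), with 1 fragment over 12 libraries in 295.9 kb. The next member before it was ZNF444 at 4.56 FPKM. The next after it, ZNF264 at 6.87 FPKM, starts only at chr19:57191500 and belongs to another cluster. The other protein-coding genes inside that run, ZFP28 at 0.000664 FPKM and SMIM17 at 0, were as low. ZFP28 is itself a zinc finger gene, left out of the members only because of its symbol. A run of 8 genes from ZNF253 to ZNF66 gave 11 fragments and lay between ZNF506 at 0.237 FPKM and ZNF85 at 0.322. A run of 7 from ZNF763 to ZNF625 gave 26 fragments.

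**Figure D2:**
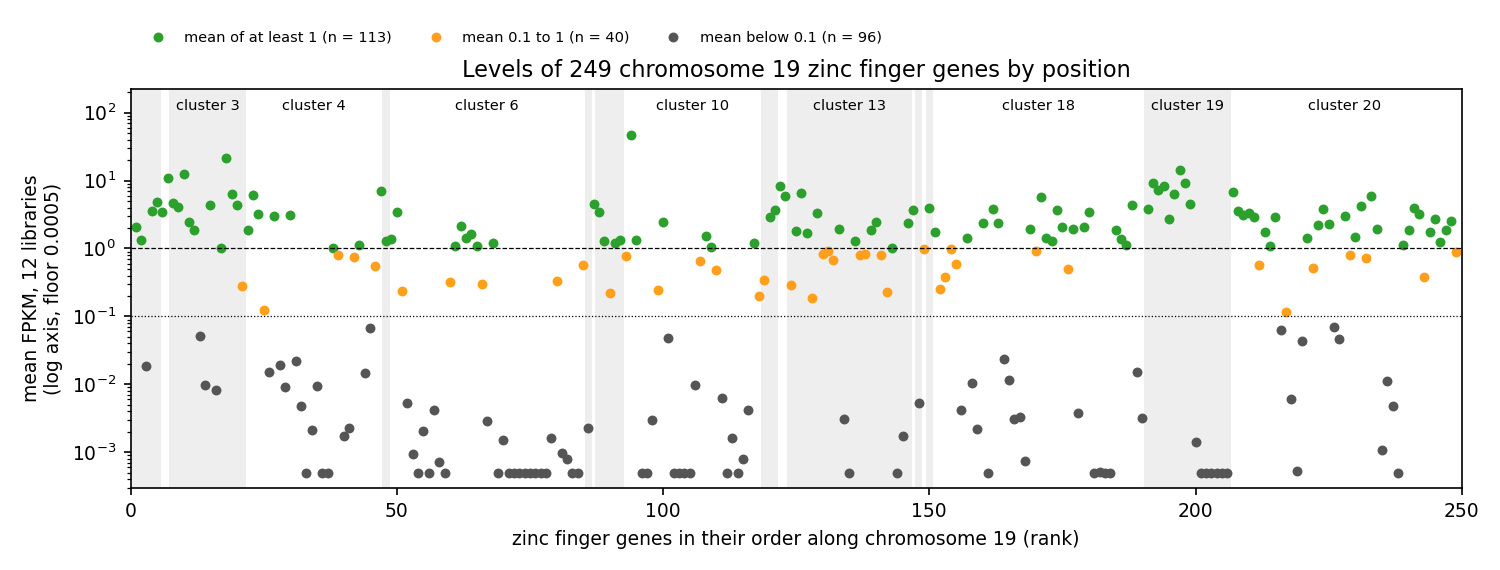
Each point is 1 of 249 chromosome 19 zinc finger genes in its order along the chromosome, with the mean FPKM of 12 libraries on a log axis and lower values drawn at 0.0005. Shading marks every other cluster, and the near-silent genes (grey, below 0.1 FPKM) form runs, as in clusters 6 and 19. Genes at 1 FPKM or more are green.

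Start-site sequences from RefSeq (GRCh38.p14), 250 bases before to 50 bases after the start, could be matched by symbol for 217 of the 249 genes. The 4 windows printed here are those of the neighbours ZNF780A and ZNF780B, whose transcripts fell after the combination, and of ZNF444 and ZNF582, which stand on either side of the edge of a silent run. Each is read 5′ to 3′ on the gene's strand, with CG pairs in capitals. The window of ZNF780A is chr19:40090894-40091193 (minus strand), that of ZNF780B chr19:40056182-40056481 (minus), that of ZNF444 chr19:56141037-56141336 (plus) and that of ZNF582 chr19:56393485-56393784 (minus).
ZNF780A: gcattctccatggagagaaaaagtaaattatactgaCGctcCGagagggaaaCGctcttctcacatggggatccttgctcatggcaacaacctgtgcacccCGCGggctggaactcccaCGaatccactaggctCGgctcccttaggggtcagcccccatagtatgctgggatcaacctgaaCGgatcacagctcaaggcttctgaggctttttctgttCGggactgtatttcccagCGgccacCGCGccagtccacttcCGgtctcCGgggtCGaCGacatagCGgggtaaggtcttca
ZNF780B: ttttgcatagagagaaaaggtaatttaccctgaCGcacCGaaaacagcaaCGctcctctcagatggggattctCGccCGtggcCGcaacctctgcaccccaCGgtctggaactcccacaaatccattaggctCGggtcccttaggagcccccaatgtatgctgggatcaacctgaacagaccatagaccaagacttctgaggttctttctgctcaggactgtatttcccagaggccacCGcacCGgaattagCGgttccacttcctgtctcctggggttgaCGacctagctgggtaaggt
ZNF444: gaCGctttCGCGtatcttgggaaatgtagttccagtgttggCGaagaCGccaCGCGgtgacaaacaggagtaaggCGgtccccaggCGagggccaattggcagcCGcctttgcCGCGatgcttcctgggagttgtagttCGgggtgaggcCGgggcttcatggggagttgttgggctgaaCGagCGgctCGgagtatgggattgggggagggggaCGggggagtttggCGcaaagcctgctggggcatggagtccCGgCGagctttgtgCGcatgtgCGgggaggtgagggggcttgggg
ZNF582: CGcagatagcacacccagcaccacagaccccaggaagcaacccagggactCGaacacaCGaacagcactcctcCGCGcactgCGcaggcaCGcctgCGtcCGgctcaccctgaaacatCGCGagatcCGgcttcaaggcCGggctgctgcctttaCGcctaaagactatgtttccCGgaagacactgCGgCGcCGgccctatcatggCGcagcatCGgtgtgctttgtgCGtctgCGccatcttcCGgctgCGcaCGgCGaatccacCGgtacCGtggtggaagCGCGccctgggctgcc
ZNF780A had 17 CG pairs, ZNF780B 12, ZNF444 23 and ZNF582 30. The nearly silent ZNF582 (0.00142 FPKM) thus had more CG pairs than the active ZNF444 (4.56 FPKM) and lay above the median of the silent genes.

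Across members the number of CG pairs was spread widely in each level class. The median was 22 for 101 genes at 1 FPKM or more, 18.5 for 34 genes from 0.1 to 1 and 17 for 82 genes below 0.1, against 14 for all 35116 windows in the table. Fewer than 10 CG pairs were found in 1.98, 5.88 and 12.2% of the windows in the same order, and in 43.6% of all windows. Most windows of the nearly silent genes thus held 10 CG pairs or more. The set of all 35116 windows was not reduced to 1 per symbol or to protein-coding genes, so it is unlike the members' set. For 213 ZNF genes of other chromosomes, taken 1 window per symbol, the median was 24, and 10.3% had fewer than 10 CG pairs. Methylation was not measured.

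**Figure D3:**
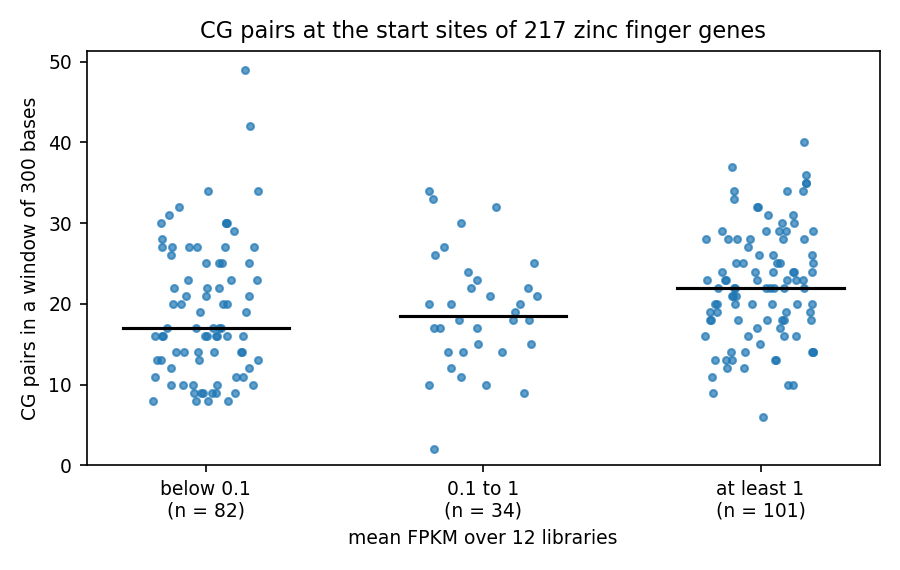
Points are 217 chromosome 19 zinc finger genes with a RefSeq start-site window of 300 bases, by level class. The vertical axis counts CG pairs per window and lines mark the medians, 17, 18.5 and 22 from the lowest to the highest class, with wide overlap between classes.

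Of 4 motifs searched on both strands, CCGGAAGT, the core bound by ETS factors, was the most frequent in these windows. It occurred in 20.7% of the 217 windows, in 25.7% of those of genes at 1 FPKM or more, 26.5% of those from 0.1 to 1, and 12.2% of those below 0.1. The share was 4.14% over all windows, 6.98% over windows with at least 10 CG pairs and 14.1% for the ZNF genes of other chromosomes. Of these sets only the last was limited to protein-coding genes and 1 window per symbol. ZNF780A held a match and ZNF780B did not. The NRF1 letters GCGCATGCG were found in 2.76% of the members' windows (1.92% of all windows), the YY1 letters CAAGATGG in 1.84% (2.19%), and the cyclic AMP response element TGACGTCA in 3.23% (1.85%). The ETS letters contain 1 CG pair, so their count moves with CG content, and a match is a description of sequence.

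Listed members known to bind transposable elements, a chosen list and not a full survey, were split between the silent and the active class. ZNF91, known to repress SVA elements, had 2 fragments over 12 libraries, ZNF93, known to repress LINE-1 elements, had 1, and ZNF534 had 2. ZNF587 and ZNF417, paralogs known to bind the HERV-K retrovirus family, had means of 5.91 and 1.91 FPKM. ZNF808, known for MER11 elements, had 1.96 FPKM and ZNF611 1.42. With all 12 libraries none of the 4 expressed genes changed past the threshold in any comparison. Without the 3 libraries that stood apart, ZNF611 was called higher after radiation (0.33, adjusted p = 0.0338) and for combination against control (0.32, adjusted p = 0.0345). ZNF417 and ZNF587 share sequence: 30.4% of the 75-base words of ZNF417 occurred in other genes, 23.3% in ZNF587, so reads could be split between them and their levels are uncertain.

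None of 4 listed members linked to the DNA damage response reached 1 FPKM. The list was fixed by choice and is not a full survey of such members. ZNF350, a partner of BRCA1, had a mean of 0.584 FPKM, and ZNF506, recruited to DNA breaks, 0.237. ZNF432, which acts in the choice of repair pathway, had 0.0103 FPKM (13 fragments) and ZNF420, a repressor of p53 targets, 0.00988 (8 fragments). Group means of ZNF350 ran from 0.452 FPKM in control to 0.651 in the combination, and it lay below the limit for testing. Among 10 other studied members, ZNF146, ZNF45 (3.28 FPKM), ZNF304 (2.89), ZNF274 (1.89), ZNF175 (1.78) and ZNF224 (1.31) were above the limit. ZNF274, known to bind the 3′ ends of zinc finger genes themselves, had group means of 1.68 FPKM in control, 1.94 after radiation, 1.93 with nab-paclitaxel and 2.01 with both. ZNF649 was at 0.384 FPKM, and ZNF382, ZNF331 and ZNF675 had 7, 6 and 1 fragments.

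Few members changed with treatment. The test was limma on log2(FPKM + 1) over 13609 genes, with an adjusted p under 0.05 as the threshold. A difference between any of the 4 groups (F test) was called for 25.3% of all genes tested. The share was 15.2% for the 191 tested ZNF genes of other chromosomes. It was called for ZNF480 (F test, adjusted p = 0.0274), which passed in no pairwise comparison of the main fit, and in all for 9 of the 113 members (7.96%). Leaving out 1 library lowered that count to 1 without radiation 1 or radiation 3 (against 16.7 and 17.1% of all genes in the same fits), 2 without radiation 2 (17.2%) and 3 without combination 3 (16.9%). It was 4 without control 1 (20.4%) or combination 1 (18.6%), and 5 without control 3 (19.9%), nab-paclitaxel 2 (22.0%) or combination 2 (22.9%). It was 13 without control 2 (28.6%) and 12 without nab-paclitaxel 1 (28.2%). Leaving out the 3 libraries that stood apart gave 18, against 45.8% of all genes. A fold change on this scale understates the change of a low gene, and in bulk RNA fewer transcribing cells and less RNA per cell cannot be told apart. The standard error of a log2 fold change had a median of 0.122 over the members and 0.126 over all tested genes. The members' ratios of group means past 1.5-fold numbered 2, 3 and 8 for radiation, nab-paclitaxel and the combination against control (1.77, 2.65 and 7.08%), where 8.44, 10.6 and 17.6% of all tested genes lay past that ratio. Of the 191 ZNF genes of other chromosomes, 3.14% were called after radiation, 5.76% with nab-paclitaxel and 14.7% with the combination against control. For the members these shares were 0.00, 1.77 and 8.85%. For the combination the shares in the 191 genes were 2.09% against radiation and 0.524% against nab-paclitaxel. Those of the members were 1.77 and 0.885%. Whether the 2 sets differed was not tested.

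**Figure D4:**
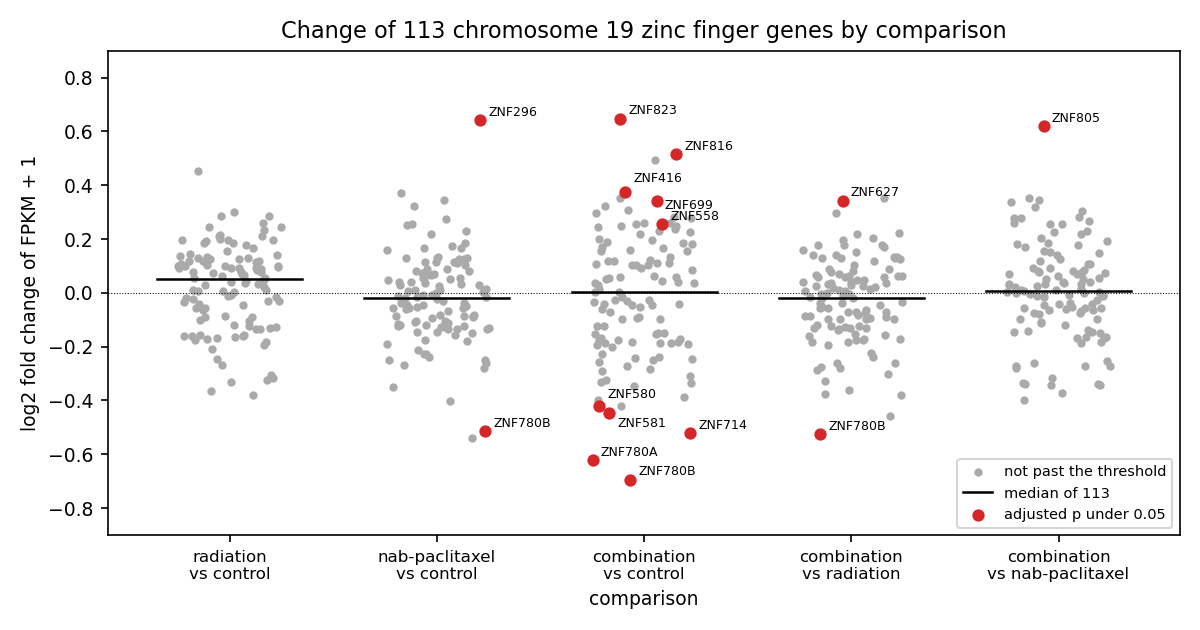
Points are the 113 chromosome 19 zinc finger genes at 1 FPKM or more in each of 5 comparisons, with the log2 fold change of FPKM + 1 on the vertical axis, red and named where the adjusted p was under 0.05. The medians (lines) lie near 0, radiation against control has no red point, and combination against control has 10.

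After radiation alone, no member passed the threshold in limma's test (0 of 113, against 5.93% of all genes tested). An unadjusted p under 0.05 was found for 11 of the 113, against 2670 of all 13609 tested genes. The count past the threshold was also 0 with voom on recovered fragments. The median log2 fold change was 0.05 over the members and -0.02 over all tested genes, and 69 of the 113 values were above 0. The smallest p among the higher ones belonged to ZNF823 (0.45 ± 0.15, SE, adjusted p = 0.105) and ZNF77 (0.29 ± 0.10, adjusted p = 0.115). Among the lower ones they belonged to ZNF714 (-0.37 ± 0.13, adjusted p = 0.124) and ZNF580 (-0.30 ± 0.11, adjusted p = 0.152).

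This count rested on the libraries that stood apart. Without control 2, nab-paclitaxel 1 and combination 2, 12 members passed the threshold for radiation, against 21.7% of all genes tested. ZNF83, ZNF761, ZNF805, ZNF14, ZNF823, ZNF699, ZNF816 and ZNF611 were higher there, and ZNF581, ZNF358, ZNF580 and ZNF784 lower. With control 2 or nab-paclitaxel 1 alone left out, 1 member passed (against 5.76 and 9.59% of all genes), and with any other single library left out none did. ZNF823 was at 2.45, 2.54 and 1.72 FPKM in the control libraries and at 3.40, 3.39 and 3.42 after radiation, without overlap. Without nab-paclitaxel 1, which enters the fit only through the shared spread, its adjusted p was 0.0449.

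With nab-paclitaxel alone 2 of 113 members passed the threshold (1.77%, against 8.82% of all genes tested), ZNF296 higher and ZNF780B lower. The median log2 fold change was -0.02 over the members and 0.04 over all tested genes. The sign of the members' median turned to 0.02 under quantile normalization. With the 3 libraries that stood apart left out, 5 members passed, against 13.5% of all genes.

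ZNF296 (chr19:45071500-45076588, minus strand), a zinc finger gene without a KRAB domain that is known from reprogramming to pluripotency, was at 3.38, 1.68 and 3.22 FPKM in control and 4.30, 5.40 and 4.56 with nab-paclitaxel. It was at 2.96, 3.14 and 3.06 after radiation and 4.51, 4.40 and 3.65 with both. All 6 libraries with the drug lay above all 6 without it. The rise with nab-paclitaxel was 0.64 ± 0.16 (log2, SE, adjusted p = 0.0357). Without control 2, the lowest library, it was 0.41 (adjusted p = 0.0424). The combination against control gave 0.49 with an adjusted p of 0.0506. Among settings that kept every library, that rise passed with quantile normalization (0.0295), voom (0.0477) and protein-coding genes only (0.0333). The call for nab-paclitaxel was lost, with adjusted p from 0.0507 to 0.0992, when any radiation library, any nab-paclitaxel library or combination 1 was left out, and without the filter on low values (0.105).

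ZNF780B and ZNF780A are neighbouring KRAB zinc finger genes on the minus strand (chr19:40028260-40056209 and chr19:40069152-40090938). ZNF780B was at 3.38, 4.76 and 3.46 FPKM in control, 3.49, 3.06 and 3.35 after radiation, 2.64, 2.12 and 2.42 with nab-paclitaxel, and 2.06, 2.34 and 1.61 with both. All libraries with the drug lay below all libraries without it. Its log2 fold change was -0.51 ± 0.13 with nab-paclitaxel (adjusted p = 0.0320), -0.69 ± 0.13 for combination against control (adjusted p = 0.00302) and -0.53 ± 0.13 for combination against radiation (adjusted p = 0.0314). The fall for combination against control stayed past the threshold with any 1 library left out (highest adjusted p 0.0163). The call for nab-paclitaxel was lost, with adjusted p from 0.0511 to 0.0899, without control 2, control 3, any radiation library, nab-paclitaxel 2 or nab-paclitaxel 3, and that against radiation, with adjusted p from 0.0785 to 0.127, without any radiation library, combination 1 or combination 3.

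ZNF780A moved with its neighbour, from 4.23, 5.73 and 4.14 FPKM in control to 4.24, 3.98 and 3.95 after radiation, 3.96, 3.10 and 3.30 with nab-paclitaxel, and 2.43, 3.45 and 2.25 with both. The combination libraries lay below the control libraries without overlap. Its fall for combination against control was -0.62 ± 0.14 (adjusted p = 0.00836), and it held with any 1 library left out (highest adjusted p 0.0395). Against radiation it was -0.46 with an adjusted p of 0.0642. Among settings that kept every library, the fall against radiation passed with TPM scaling (0.0327), voom (0.0356), protein-coding genes only (0.0483) and only the groups compared (0.0418). Reads shared between the pair were few, with 3.70% of the 75-base words of ZNF780A and 0.928% of those of ZNF780B found in other genes. An annotated processed transcript on the same strand, AC005614.2 (0.0768 FPKM), overlaps ZNF780A by 21774 bases and ZNF780B by 7453 bases.

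For the combination against control 10 of 113 members passed the threshold (8.85%, against 22.9% of all genes tested). Of these 5 were higher, where 12.2% of all genes were, and 5 were lower, where 10.6% of all genes were. The median log2 fold change was 0.00 over the members and 0.00 over all tested genes. With the replicate number as a block 9 members passed (against 19.5% of all genes), 8 of them among the 10. The count was 6 without combination 3, against 14.4% of all genes in that fit, and 16 without nab-paclitaxel 1, against 28.8%. Without the 3 libraries that stood apart, 20 passed, 10 in each direction, against 37.1% of all genes. With all libraries, tested genes outside the members were called less often at low levels. Of these other genes, 390 of 2441 passed at 1 to 2 FPKM, 775 of 3592 at 2 to 5 and 1936 of 7463 at 5 or more. Of the members, 1 of 45, 7 of 49 and 2 of 19 passed in the same order.

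Of the 5 that fell, ZNF780B and ZNF780A are given above. ZNF714 (chr19:21082159-21125270, plus strand) went from 2.74, 3.27 and 2.35 FPKM in control to 1.28, 1.88 and 1.76 with both treatments, a log2 fold change of -0.52 ± 0.13 (adjusted p = 0.0130). It was at 2.01, 1.94 and 1.82 FPKM after radiation and 2.02, 2.23 and 2.78 with nab-paclitaxel. Radiation and combination libraries all lay below the control libraries, while those with nab-paclitaxel overlapped them. Without combination 1 its adjusted p was 0.0543. A pseudogene inside it on the same strand, VN1R81P, was listed at 2.59 FPKM, and how reads were divided between them was not stated.

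ZNF580 (chr19:55635016-55643469) and ZNF581 (chr19:55635459-55645622) encode short zinc finger proteins, and the genes overlap by 8011 bases on the plus strand. Of the 75-base words, 9.54% of those of ZNF580 and 15.7% of those of ZNF581 occurred in other genes, so their values are not independent. ZNF581 went from 17.4, 13.5 and 19.2 FPKM in control to 13.3, 10.2 and 12.4 in the combination, and ZNF580 from 7.72, 6.14 and 7.91 to 5.84, 4.44 and 5.21. In both genes the groups did not overlap, and combination 2 was the lowest library. The falls were -0.45 ± 0.13 for ZNF581 (adjusted p = 0.0245) and -0.42 ± 0.11 for ZNF580 (adjusted p = 0.0197). Both calls were lost without control 1, control 3, combination 2 or combination 3, with adjusted p from 0.0556 to 0.0911 for ZNF581 and from 0.0554 to 0.0722 for ZNF580.

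Among the 5 that rose, ZNF823 and ZNF816 rose most. ZNF823 (chr19:11721265-11739009, minus strand) was at 3.75, 4.56 and 3.85 FPKM in the combination, all above its control libraries given above, and at 4.11, 3.21 and 2.35 with nab-paclitaxel alone. Its rise was 0.65 ± 0.15 (adjusted p = 0.00951, highest value with 1 library left out 0.0384). ZNF816 (chr19:52949379-52962911, minus strand) was at 1.18, 1.97 and 1.36 FPKM in control, 2.01, 2.09 and 2.05 after radiation, 2.57, 1.86 and 2.06 with nab-paclitaxel, and 2.58, 2.57 and 2.49 in the combination. Radiation and combination libraries all lay above the control libraries. The rise for combination against control was 0.52 ± 0.12 (adjusted p = 0.0112, highest value with 1 library left out 0.0423). In ZNF816, 6.83% of the 75-base words were shared with other genes.

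ZNF416, ZNF699 and ZNF558 rose by smaller amounts, and their calls were less firm. ZNF416 (chr19:57571566-57578927) went from 1.30, 1.22 and 0.956 FPKM in control to 1.97, 1.65 and 1.77, a log2 fold change of 0.37 ± 0.11 (adjusted p = 0.0334). Its adjusted p was 0.0585 with the replicate block and 0.0509 to 0.115 without control 3, radiation 3, combination 1 or combination 3. ZNF699 (chr19:9294275-9309838) went from 1.89, 2.21 and 2.19 to 2.67, 3.27 and 2.86 FPKM (0.34 ± 0.11, adjusted p = 0.0370). Its radiation libraries, at 2.70, 2.59 and 2.84 FPKM, also lay above all control libraries. An antisense gene of 3.32 FPKM, AC011451.1, overlaps it, and whether counting used the strand was not stated. The call was lost, with adjusted p from 0.0515 to 0.113, without control 1, control 3 or any radiation or combination library.

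ZNF558 (chr19:8806170-8832328, minus strand), known for its control of a mitophagy gene in neural cells, was level at 3.74, 4.15 and 3.79 FPKM in control, 3.98, 4.15 and 3.91 after radiation, and 4.25, 3.64 and 3.57 with nab-paclitaxel. In the combination it was at 4.85, 5.15 and 4.55 FPKM, above all 9 other libraries. The rise against control was 0.26 ± 0.08 (adjusted p = 0.0398). It was not past the threshold with the replicate block (adjusted p = 0.0606), nor without control 1, control 3 or any radiation or combination library (0.0596 to 0.112). The interaction term was 0.25 ± 0.11 with an adjusted p of 1.00.

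**Figure D5:**
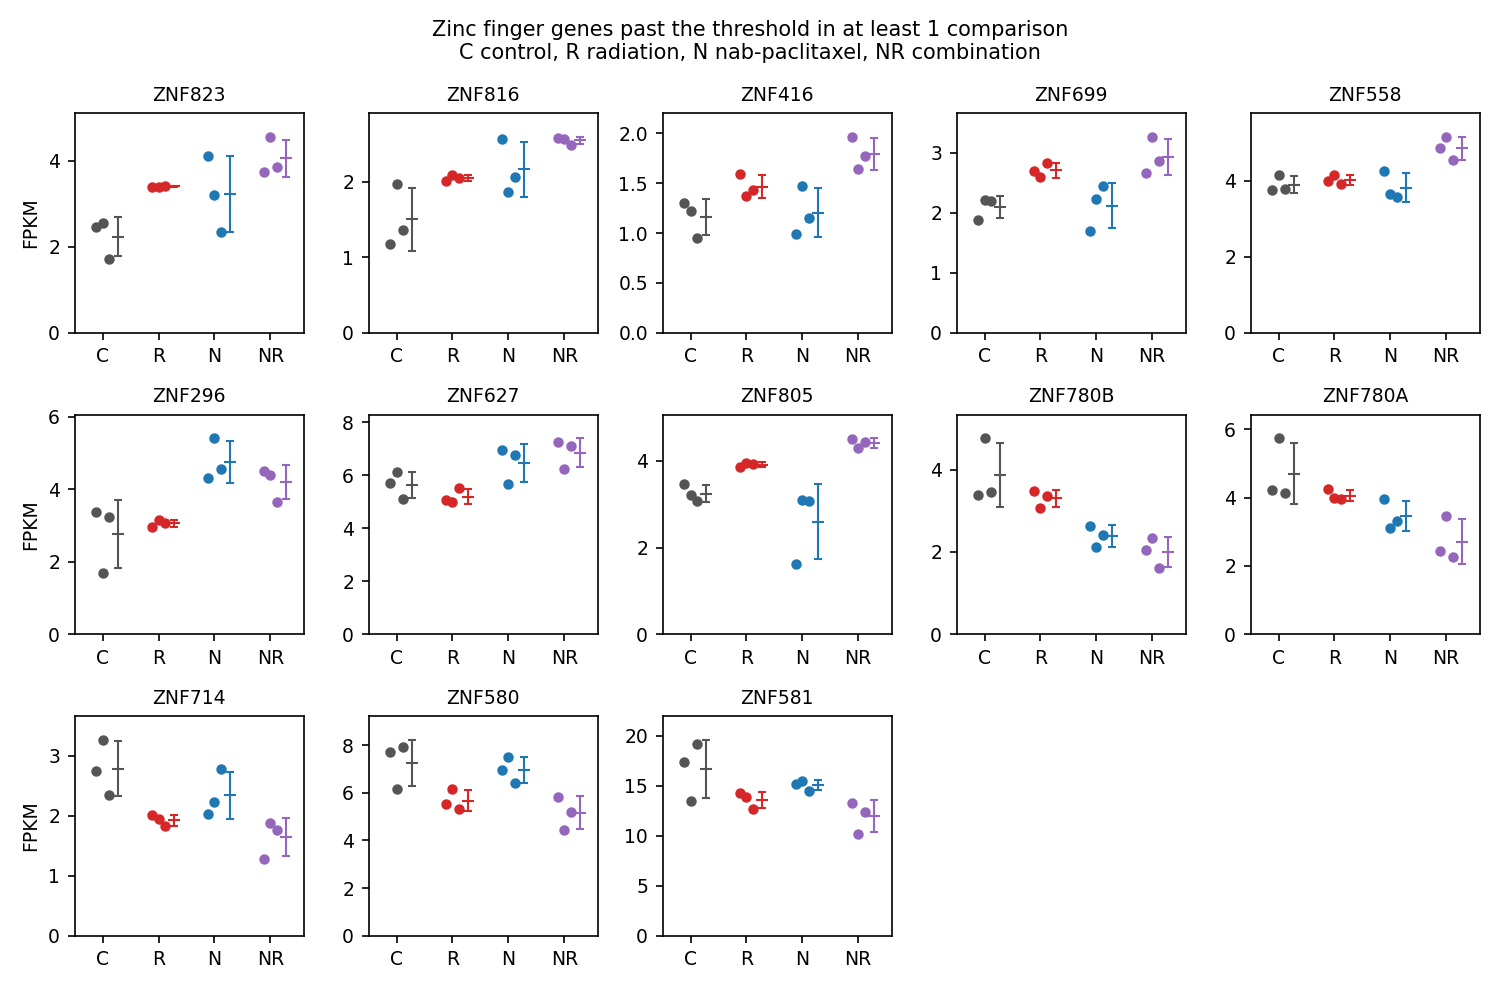
Each panel gives 1 of the 13 members past the threshold in at least 1 comparison, with FPKM on a linear axis from 0, 1 point per library in the order of replicates 1 to 3, and the mean with SD (n = 3) beside the points. ZNF780B and ZNF780A are lowest with the combination, ZNF558 is above all other libraries there, and nab-paclitaxel 1 is the low point of ZNF805.

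The calls of ZNF780B, ZNF780A, ZNF823 and ZNF816 for combination against control held under every other setting that tested them. That of ZNF714 held under the settings that kept every library, and was lost without combination 1 (0.0543). Those of ZNF581, ZNF580, ZNF416, ZNF699 and ZNF558 were lost with TPM scaling (adjusted p from 0.0513 to 0.102), with no filter on low values (0.0523 to 0.0872) and with only the groups compared in the fit (0.0672 to 0.0996). The calls for nab-paclitaxel alone were lost with no filter (0.105 for ZNF296 and 0.0878 for ZNF780B), with only the groups compared (0.187 and 0.161) and with the replicate block (0.0675 and 0.0575). That of ZNF296 was also lost with TPM scaling (0.0932), and that of ZNF780B with quantile normalization (0.0619).

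Against radiation alone, the combination changed 2 of 113 members past the threshold (1.77%, against 7.75% of all genes tested), ZNF780B lower and ZNF627 higher. ZNF627 (chr19:11559374-11619135, plus strand) was at 5.08, 4.98 and 5.50 FPKM after radiation and 7.24, 6.23 and 7.09 with both, and at 5.69, 6.11 and 5.12 in control. The rise was 0.34 ± 0.10 (adjusted p = 0.0499). Its call was lost without control 1, control 3, nab-paclitaxel 3, or any radiation or combination library, with adjusted p from 0.0513 to 0.163. Both calls against radiation were also lost with quantile normalization (0.0594 for ZNF627 and 0.0539 for ZNF780B), with no filter (0.103 and 0.0793) and with the replicate block (0.0818 and 0.0564). That of ZNF627 was lost under 4 further settings (0.0507 to 0.0894). Without control 2, 4 members passed, against 11.6% of all genes in that fit, and without nab-paclitaxel 1, 3 passed, against 13.8%. Without any radiation library, combination 1 or combination 3 none passed, against 1.60 to 2.81% of all genes. The count was 7 without the 3 libraries that stood apart, against 30.3% of all genes tested.

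Against nab-paclitaxel alone, 1 of 113 members passed (0.885%, against 3.92% of all genes tested), ZNF805 higher. ZNF805 (chr19:57240685-57255135, plus strand) was at 1.61, 3.10 and 3.08 FPKM with nab-paclitaxel, 3.46, 3.20 and 3.07 in control, 3.85, 3.94 and 3.93 after radiation, and 4.50, 4.29 and 4.43 with both. The irradiated libraries, with and without the drug, lay above all others, and nab-paclitaxel 1 was the lowest. The rise was 0.62 ± 0.15 (adjusted p = 0.0394), and without nab-paclitaxel 1 it was 0.40 (adjusted p = 0.0164). The call was lost without control 1, control 3, or any radiation or combination library, with adjusted p from 0.0561 to 0.126, with TPM scaling (0.121), with no filter (0.117), with the replicate block (0.0723) and with only the groups compared (0.180). Of the lower members, ZNF579 had the smallest p (-0.34 ± 0.09, adjusted p = 0.0583). It passed without control 2 (0.0470), control 3 (0.0478) or nab-paclitaxel 3 (0.0468). ZNF580 came next, with an adjusted p of 0.102. The count was 2 without control 2 (against 5.39% of all genes) or nab-paclitaxel 3 (2.44%) and 3 without nab-paclitaxel 1 (3.67%). It was 0 without control 1 or any radiation or combination library (1.30 to 3.17%). When the 3 libraries that stood apart were left out, 4 members passed, against 9.56% of all genes.

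No member passed the interaction test in limma, which asks whether the effect of one treatment differs in the presence of the other (0 of 113, against 0.00% of all genes tested). At an unadjusted p under 0.05 there were 2 of 113, against 443 of all 13609 tested genes, and voom also called 0 members. The smallest p above 0 belonged to ZNF558 and ZNF805 (0.41 ± 0.21), and the smallest below 0 to ZNF579 (-0.33 ± 0.13) and ZNF77 (-0.33 ± 0.14), all with an adjusted p of 1.00. The effect of radiation can be taken from libraries without the drug and, separately, from libraries with it. Over the 113 members these estimates correlated with r = 0.65 (Spearman's rho = 0.62), with the same sign in 80. For the drug with and without radiation, r was 0.62 (rho = 0.53), with the same sign in 77. Over all 13609 tested genes r was 0.58 and 0.68 (rho = 0.62 and 0.73). The sign was the same in 73.5 and 79.4% of all tested genes, and in 70.8 and 68.1% of the members. These are correlations across genes, which are not independent replicates.

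By position, the clusters with at least 6 tested members are described by the signs of their values, with no test. After radiation, 21 of 26 members of the cluster from ZNF264 to ZNF446 had a log2 fold change above 0 (median 0.11), as did 15 of 18 from ZNF175 to ZNF331 (median 0.11), where 6315 of 13609 tested genes did. In the other 6 clusters, 2 of 8, 3 of 8, 3 of 6, 3 of 10, 4 of 10 and 5 of 9 were above 0. With nab-paclitaxel 13 of 26 from ZNF264 to ZNF446 were above 0, where 7628 of all tested genes were. In the cluster from ZNF628 to ZNF835, which holds ZNF579, ZNF580 and ZNF581, 1 of 9 members was above 0 for combination against control (median -0.24), where 6854 of all tested genes were. For combination against radiation 0 of 9 were (median -0.18, values from -0.38 to -0.01), where 7439 of all tested genes were. In the cluster from ZNF101 to ZNF254, which holds ZNF714, 2 of 8 were above 0 for combination against control (median -0.24), and in the remaining 6 clusters 2 of 6, 3 of 8, 4 of 10, 6 of 10, 12 of 18 and 17 of 26 were.

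Of the corepressors these proteins work with, TRIM28 was abundant and did not pass the threshold in any comparison (smallest adjusted p 0.0547, against nab-paclitaxel). Its group means were 138 ± 11.2 FPKM (SD, n = 3) in control, 119.8 ± 1.91 after radiation, 160.9 ± 9.77 with nab-paclitaxel and 128.7 ± 5.22 with both. SETDB1 was at 5.80 ± 0.386, 5.06 ± 0.215, 5.06 ± 0.790 and 5.13 ± 0.138 FPKM in the same order and did not pass either. TRIM28 and HDAC1 had interaction terms of -0.12 ± 0.12 and -0.00 ± 0.12, both with an adjusted p of 1.00.

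Of 42 tested genes of corepressors and heterochromatin, 0 rose and 6 fell after radiation, 1 rose and 1 fell with nab-paclitaxel, and 0 rose and 11 fell with the combination against control. Over all tested genes the shares that rose and fell were 2.48 and 3.45% after radiation, 5.41 and 3.41% with nab-paclitaxel, and 12.2 and 10.6% with the combination. The count of falls after radiation was 2 without any radiation library (1.37 to 1.45% of all genes fell in those fits), 3 without control 1 (1.93%) or control 3 (2.42%) or with the replicate block (2.25%), and 10 without nab-paclitaxel 1 (5.77%). For the combination it was 6 without combination 3 (6.87%). Without the 3 libraries that stood apart, 1 rose and 18 fell after radiation (8.98 and 12.7% of all genes), 2 rose and 2 fell with nab-paclitaxel (8.79 and 4.70%), and 3 rose and 18 fell with the combination (37.1% called, 17.2% of all genes lower). Their median log2 fold change was -0.17, 0.05 and -0.17 in these comparisons, beside -0.02, 0.04 and 0.00 for all tested genes. The genes that fell after radiation include UHRF1 (-0.74, adjusted p = 0.00599), RBBP4 (-0.47, 0.00930), HELLS (-0.54, 0.0248) and SUV39H1 (-0.47, 0.0293). UHRF1, HELLS and the histone chaperone subunits CHAF1A and CHAF1B are known to act on newly copied chromatin in dividing cells. With both treatments UHRF1 went from 11.9 ± 2.07 to 6.75 ± 0.915 FPKM (SD, n = 3; -0.73, adjusted p = 0.00192), HELLS changed by -0.83 (8.54e-04), CHAF1A by -0.93 (0.00264) and ATRX by -0.75 (0.00234). The chromatin remodeller ATRX fell with nab-paclitaxel alone (-0.84, adjusted p = 0.00589), while SUMO2 rose (0.40, 0.0422).

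Against radiation, ATRX was lower (-0.61, adjusted p = 0.0202) and SUMO2 higher (0.48, 0.0245), 1 of 42 in each direction, where 2.95% of all genes fell and 4.81% rose. Against nab-paclitaxel 0 rose and 6 fell, where 1.21% of all genes rose and 2.70% fell, led by UHRF1 (-0.81, adjusted p = 0.00510), CHAF1B (-0.50, 0.00980), CHAF1A (-0.86, 0.0155) and HELLS (-0.57, 0.0258). That count of falls was 3 without nab-paclitaxel 2, nab-paclitaxel 3, combination 1 or combination 2 or with the replicate block (1.41 to 1.73% of all genes), and 2 without combination 3 (0.985%). Without the 3 libraries that stood apart, 5 rose and 7 fell against radiation (18.8 and 11.5% of all genes), and 0 rose and 10 fell against nab-paclitaxel (3.75 and 5.81%). The falls of UHRF1 in these 3 comparisons, of ATRX in both comparisons with control, of HELLS and CHAF1A for combination against control and of CHAF1B held with any 1 library left out. Each of the others lost its call without at least 1 library: RBBP4 without radiation 2 (0.0559), HELLS after radiation without control 2 or any radiation library (up to 0.109), and SUV39H1 without any control library, radiation 1 or radiation 3 (up to 0.125). SUMO2 with nab-paclitaxel lost it on leaving out each library except control 2 and nab-paclitaxel 3 (up to 0.128; its fold change was 0.27 without nab-paclitaxel 1), and against radiation without any radiation or combination library (up to 0.0990). ATRX against radiation lost it without any radiation library, combination 1 or combination 3 (up to 0.0895). CHAF1A against nab-paclitaxel lost it without combination 2 or combination 3 (up to 0.0647), and HELLS without any nab-paclitaxel library, combination 1 or combination 3 (up to 0.112).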

How the data were processed

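FPKM values and gene lengths for 58735 genes in 12 libraries were taken from the table that the authors deposited (per the file headers). Genes are placed on hg38, which the submitters' processing notes name. The sources used here give no aligner, no counting tool, no origin of gene length and no use of strand. In each library FPKM times gene length was a whole multiple of 1 value, from which fragment numbers and depth were recovered. This held within 0.05 for 100% of the values checked, those above 0 and up to 2000 fragments. The step differed from that of the library's own total, so values follow the authors' scaling.

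Groups came from the labels. Genes averaging 1 FPKM or more (13609) were fitted with limma 3.58.1 (R 4.3.3) as log2(FPKM + 1), with a trend of variance on level and 1 spread over 4 groups, leaving 8 residual and 3.39 prior degrees of freedom. Tests were two-sided, with Benjamini-Hochberg adjustment over all tested genes within a contrast and a threshold of 0.05. The fit was tested on simulated data.

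The members and lists were chosen with earlier results of these data known. Named with values were the members past the threshold in a pairwise comparison or the interaction (up to 6 in each direction). Otherwise the 2 with the smallest p in a direction were named. The 8 highest, those nearest the limit of 1 FPKM and the role lists were also named. From the corepressor list up to 4 past the threshold were named, or otherwise the 2 highest. The 3 libraries that stood apart were left out after their values were seen. Shared sequence was counted in 75-base words over GENCODE 29 transcripts.

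Same-numbered libraries of control and combination deviated together from their group means (r = 0.233, 0.543 and 0.172). The largest value joins control 2 and combination 2, which both stood apart. The labels tie the numbers to no batch or day, so the main fit held no replicate block. Its p-values for combination against control thus take no account of a possible pairing. The block was an alternative setting and covered all 4 groups. No other pair of groups had a positive r in all 3 numbers, and for control and nab-paclitaxel r was -0.244, -0.492 and 0.172. Alternatives were 3 other scalings, 0.1 as pseudocount, no filter on low values, a minimum mean of 5 FPKM, the block, no trend, voom, protein-coding genes only, only the groups compared, and leaving out each library.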

Additional observations from a re-analysis of the deposited data

How the results depend on the processing

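The number of members called after radiation stayed at 0 and the interaction at 0 under all planned settings that kept every library. Nab-paclitaxel against control (2) gave 1 with quantile normalization or TPM scaling, and 0 with no filter on low values, a minimum mean of 5 FPKM, the replicate block or only the groups compared. Combination against control (10) gave 18 with quantile normalization, 6 with TPM scaling, 5 with no filter, 2 with a mean of at least 5 FPKM (19 members tested), 17 with protein-coding genes only, 6 with only the groups compared and 9 with the replicate block. Its split of 5 higher and 5 lower became 12 and 6 with quantile normalization. Combination against radiation (2) gave 1 with size factors over the tested genes, quantile normalization, a mean of at least 5 FPKM or no trend, 0 with no filter or the replicate block, and 6 with only the groups compared. Combination against nab-paclitaxel (1) gave 0 with TPM scaling, no filter, the replicate block or only the groups compared. The F test (9) gave 14 with quantile normalization, 1 with no filter or a mean of at least 5 FPKM, and 4 with the replicate block. Without the 3 libraries that stood apart the counts were 12, 5, 20, 7, 4 and, for the F test, 18. The shares of all genes called there were 21.7, 13.5, 37.1, 30.3, 9.56 and 45.8% in the same order. With the replicate block these shares were 3.90, 5.15, 19.5, 4.45, 2.25 and 19.4%. For the other settings the shares of all genes are not given here. Those counts alone do not show whether the members moved apart from all genes.

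With each library left out in turn the counts ran from 0 to 1 for radiation, 0 to 2 for nab-paclitaxel, 6 to 16 for the combination, 0 to 4 against radiation, 0 to 3 against nab-paclitaxel, 0 to 0 for the interaction and 1 to 13 for the F test. Shares of all genes called in these fits ran from 2.35 to 9.59% for radiation, 3.85 to 8.68% for nab-paclitaxel and 14.4 to 28.8% for the combination. They ran from 1.60 to 13.8% against radiation, 1.30 to 5.39% against nab-paclitaxel and 16.7 to 28.6% for the F test, with 0.00% for the interaction. In all settings run, no named member's fold change reversed its sign. The interaction term of HDAC1 (main value -0.003) turned to 0.042 without the 3 libraries and ranged from -0.051 to 0.069 with 1 library left out. No scaling moved the median of all genes by over 0.1. The cause of these shifts was not tested. Interaction and F test were not run with only the groups compared. A level below 0.1 FPKM rests on few fragments (median 1 over 12 libraries). From 0.1 to 1 FPKM there could be more, such as 530 for ZNF350 and 334 for ZNF649. The 3 libraries a group limit what could be called.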
